A study of Drosophila melanogaster with 40 samples.

Results

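The genes dpp, tld, brk and pnr of the Drosophila bone morphogenetic protein (BMP) pathway were examined for binding of Capicua (Cic), a repressor with an HMG-box DNA-binding domain. Every peak that the authors annotated to one of these symbols in their final list was taken, which gave 5 peaks of 103. There were 2 peaks at dpp and 1 each at tld, brk and pnr. Binding was measured by ChIP-seq with a GFP antibody against Cic tagged with sfGFP, in embryos of early nuclear cycle 14.

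Wild type embryos had the genotype (+/+); (CicsfGFP/+). Optogenetic embryos had the genotype (UAS-OptoSOS/gal4);(CicsfGFP/gal4) with the maternal triple driver MTD gal4, and were given no light or 1, 5 or 30 min of blue light. In OptoSOS, light brings the catalytic part of SOS, which activates Ras, to the membrane, and ERK becomes active. Embryos with constant ERK signalling from the receptor Torso had the genotype (TorD4021/+);(cicsfGFP/+). Untagged OreR embryos, genotype (+/+), were the control for the antibody. Every tagged group carried 1 copy of the tagged allele. Each ChIP group had 3 replicates, except the 1 min group with 2. The deposited signal matrices give 1 profile per condition and peak, with the replicates not shown apart, and there is none for the untagged group. The spread between replicates is therefore unknown, no test across samples was possible, and every interval below is a 95% interval for counting error only. Whole embryos were used, so fewer nuclei with bound Cic and less Cic per nucleus cannot be told apart.

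In the fly embryo Dpp, a BMP ligand, signals in the dorsal ectoderm and specifies the amnioserosa at the dorsal midline. Tolloid, the metalloprotease encoded by tld, cleaves the inhibitor Sog and frees the ligand. Brinker, the product of brk, is a repressor that keeps BMP target genes silent in the neuroectoderm. Pannier, the product of pnr, is a GATA transcription factor of the dorsal ectoderm whose gene responds to Dpp. Cic is known for repression of genes that are released when receptor tyrosine kinases activate ERK, and it acts with Dorsal in the ventral silencing of zen.

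Cic bound inside dpp, at the tld and pnr promoters and upstream of brk in wild type embryos. Positions are given in dm6, and fold enrichment is the authors' MACS2 value, pooled wild type reads over the untagged reads expected at that place. The ligand gene dpp had the strongest site. The dpp peak 1 spans chromosome 2L, 2456342 to 2457393, in an intron, with its summit at 2456568, 1831 bp downstream of the start of the annotated transcript. Its fold enrichment was 13.6 with a -log10 q of 120, rank 17 of 103 by fold enrichment. At 1052 bp it was the third widest peak of the list, whose median width was 381 bp. The weaker dpp peak 2 spans 2L, 2453462 to 2453729, also in an intron, with its summit 1133 bp upstream of that start and 2964 bp from the other summit. Its fold enrichment was 6.39 with a -log10 q of 27.1 (rank 65), below the list median of 7.19.

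The protease gene tld had a promoter peak at 3R, 24749130 to 24749622, with a fold enrichment of 11.4, a -log10 q of 73.7 and rank 27. Its summit lay 457 bp upstream of the tld start. By RefSeq coordinates the peak fills most of the 605 bp between tld and the preceding gene tok, which encodes the related protease Tolkin and ends 5 bp before the peak. The peak cannot be assigned to tld and not to tok from position alone. The repressor gene brk had a peak at X, 7306075 to 7306366, with its summit 1720 bp upstream of the brk start. It had a fold enrichment of 12.1, a -log10 q of 66.9 and rank 24. The authors placed it in an intron of another gene, and in RefSeq the genes CG1677 and lncRNA:CR44357 span it. The promoter peak of pnr lay at 3R, 16034213 to 16034559, with its summit 189 bp upstream of the annotated start, inside the longer RefSeq span of pnr. It had a fold enrichment of 8.32, a -log10 q of 37.5 and rank 42.

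The untagged level used here is the background MACS2 expected at a summit, recovered from pileup and fold enrichment. Its lowest value over all calls was 6.90, the same as untagged tags spread evenly over the genome (6.90). The level was 1.00 times this lowest value at brk, 1.07 at pnr, 1.24 at tld, 1.30 at dpp peak 2 and 1.59 at dpp peak 1. The median over the final list was 1.24. Of the 5 peaks dpp peak 1 thus had the highest expected background. The value at brk equals the genome average and does not give the untagged signal at that site.

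**Figure D1:**
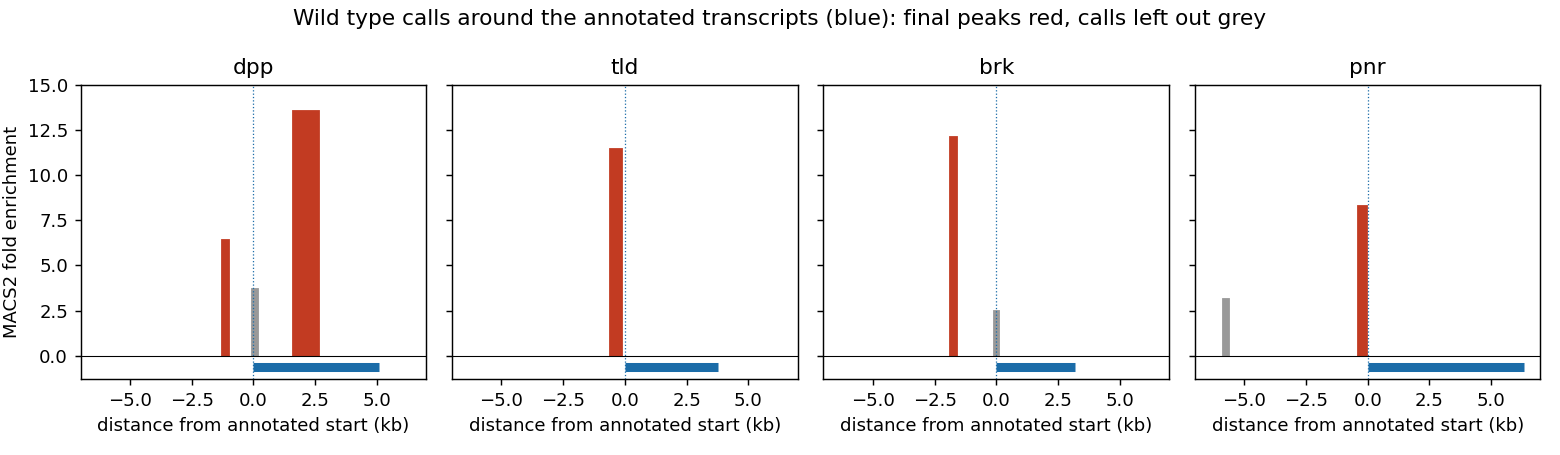
MACS2 fold enrichment of wild type calls (vertical axis, ratio to untagged) against distance from the annotated transcript start in kb, for dpp, tld, brk and pnr. Red bars are the 5 final peaks, drawn to their width, grey bars are calls within 10000 bp that are not in the final list, and blue lines are the annotated transcripts. The red bars reach 13.6 at dpp peak 1 and 6.39 at dpp peak 2.

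Levels below are coverage over noise, which is the mean read coverage within 250 bp of the window centre divided by the mean coverage of the authors' noise peaks in the same condition. A value of 1 is the noise level. At dpp peak 1 coverage over noise was 14.9 in wild type, 18.2 in no light, 20.7 after 1 min, 8.29 after 5 min, 5.14 after 30 min and 5.45 with active Torso. This peak was the highest of the 5 in every condition and ranked between 7 and 24 of 103. At dpp peak 2 coverage was 4.84 in wild type, 6.84 in no light, 8.26 after 1 min, 3.78 after 5 min, 2.67 after 30 min and 2.87 with active Torso.

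At tld coverage over noise was 8.98 in wild type, 13.5 in no light, 12.6 after 1 min, 4.43 after 5 min, 3.77 after 30 min and 4.77 with active Torso. It stood second of the 5 peaks in all 6 conditions. At brk coverage was 6.21 in wild type, 6.33 in no light, 9.12 after 1 min, 2.97 after 5 min, 1.66 after 30 min and 3.35 with active Torso. At pnr coverage was 5.82 in wild type, 7.15 in no light, 10.9 after 1 min, 3.74 after 5 min, 1.87 after 30 min and 1.88 with active Torso. The lowest values of the 5 peaks were therefore those of brk and pnr after 30 min and of pnr with active Torso.

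Neighbours in this order often could not be separated. In wild type dpp peak 1 exceeded tld by 1.66 times (1.41 to 1.957) and tld exceeded brk by 1.45 times (1.18 to 1.77), whereas brk and pnr (ratio 1.07, 0.856 to 1.34) and pnr and dpp peak 2 (1.20, 0.944 to 1.52) did not differ beyond counting error. With active Torso dpp peak 1 and tld did not differ beyond it either (1.14, 0.911 to 1.45). The 5 peaks held between 131 and 404 read equivalents in wild type and between 39.7 and 123 after 30 min, so the late values are the least precise.

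**Figure D2:**
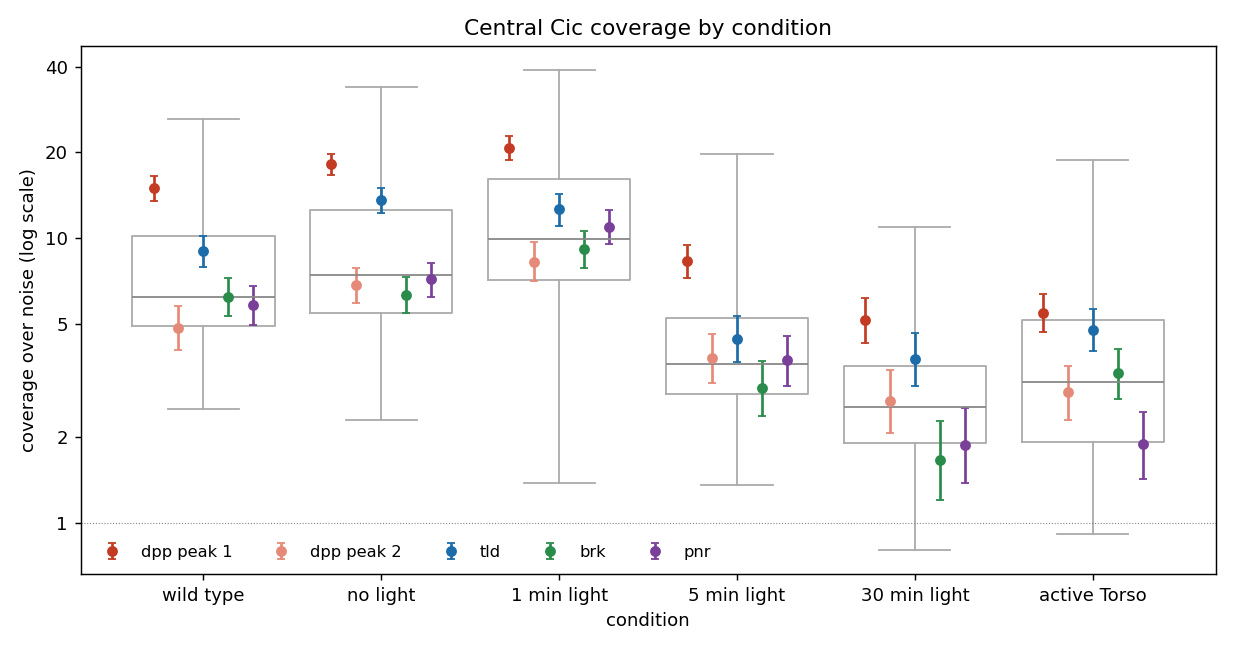
Coverage over noise on a log scale (vertical axis) in the 6 conditions (horizontal axis) for the 5 peaks, with 95% counting intervals. Grey boxes give the quartiles, median and full range of all 103 peaks. Among the 5, dpp peak 1 stays on top, from 14.9 in wild type to 5.14 after 30 min, and brk and pnr end lowest, at 1.66 and 1.87.

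The OptoSOS line kept in the dark was first set against wild type. Coverage was higher beyond counting error at 3 of the 5 peaks and lower at 0, where 46.6% of all 103 peaks were higher and 2.91% lower. The largest difference was at tld, with a ratio of 1.51 (1.28 to 1.77), followed by dpp peak 2 with 1.41 (1.13 to 1.77) and dpp peak 1 with 1.22 (1.07 to 1.39). The ratio was 1.23 (0.996 to 1.52) at pnr and 1.02 (0.824 to 1.26) at brk. The median of the 5 was 1.23 and that of all peaks 1.19. Both dpp calls were lost with 100 bp on each side of the centre (dpp peak 1 ratio 1.16, 0.982 to 1.37, and dpp peak 2 ratio 1.32, 0.9997 to 1.76) and with the highest point of the window in place of its mean. At pnr the ratio was 0.964 (0.725 to 1.27) with 100 bp on each side and 1.04 (0.673 to 1.58) with the highest point. With windows matched by shape to wild type, of 150 bp on each side, it was 1.05 (0.816 to 1.33). The ratio at tld was 1.48 times that at brk (1.13 to 1.94), a difference in which the scaling of the conditions cancels. The line and the libraries cannot be told apart in this comparison.

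After 1 min of light, relative to no light, brk and pnr were higher and the other 3 peaks were not called. The ratio was 1.44 (1.17 to 1.78) at brk and 1.53 (1.26 to 1.86) at pnr. With the highest point in place of the mean, brk was not called (1.32, 0.921 to 1.85). It was 1.21 (0.977 to 1.49) at dpp peak 2, 1.14 (0.999 to 1.30) at dpp peak 1 and 0.930 (0.789 to 1.09) at tld. Thus 2 of 5 were higher, where 63.1% of all peaks were higher and 0.971% lower. The ratio at tld was the third lowest of all 103 peaks, and it was 0.607 times that at pnr (0.470 to 0.783) and 0.644 times that at brk (0.493 to 0.842). On the authors' z-score scale, tld went from 17.005 to 12.8 and dpp peak 1 from 23.3 to 21.7, while pnr went from 8.34 to 10.9 and brk from 7.22 to 8.95. At dpp peak 1 the z-score and the coverage ratio therefore differ in direction.

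By 5 min of light Cic had dropped at each of the 5 peaks relative to no light, where 93.2% of all peaks were lower and 0.971% higher. The fold was largest at the protease gene tld. The no light matrix is the denominator here and at 1 min, and the numerator in the comparison with wild type. A high no light value at tld would therefore raise its ratio to wild type and lower its ratios after light. Coverage at tld was 8.98 in wild type, 13.5 in no light and 12.6 after 1 min. On the z-score scale dpp peak 1 fell by 13.6 and tld by 12.5. Coverage at tld went from 13.5 to 4.43, which is 3.06-fold lower (2.49 to 3.78), rank 13 of 103 by size of loss. The other peaks were 2.19-fold lower at dpp peak 1 (1.87 to 2.57), 2.13-fold at brk (1.63 to 2.80), 1.91-fold at pnr (1.51 to 2.46) and 1.81-fold at dpp peak 2 (1.41 to 2.31). Those 4 lay close to the median of all peaks, 2.02-fold. Of 10 pairs of peaks 4 differed in their fold beyond counting error, and all 4 pairs contain tld. The intervals are not adjusted for the number of pairs. The fold at tld was 1.39 times that at dpp peak 1 (1.07 to 1.82), 1.44 times that at brk (1.02 to 2.03), 1.59 times that at pnr (1.15 to 2.21) and 1.70 times that at dpp peak 2 (1.22 to 2.35). With 100 bp in place of 250 bp on each side of the centre 2 pairs differed. The folds include the noise level, and tld started further above it than brk, pnr and dpp peak 2. An equal relative loss of coverage above noise would therefore already give a larger fold at tld than at those peaks. Of that coverage in no light, 27.3% was left at tld, 36.9% at brk, 42.4% at dpp peak 1, 44.5% at pnr and 47.7% at dpp peak 2. The median of all peaks was 41.8%. Whether these shares differ was not tested.

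After 30 min all 5 peaks were lower than in no light again, where 95.1% of all peaks were lower. Folds were 3.82 at pnr (2.74 to 5.35), 3.80 at brk (2.68 to 5.46), 3.60 at tld (2.85 to 4.57), 3.54 at dpp peak 1 (2.90 to 4.33) and 2.56 at dpp peak 2 (1.92 to 3.43). The median of the 5 was 3.60-fold and that of all peaks 3.11-fold. None of the 10 pairs differed beyond counting error. The widest gap, between pnr and dpp peak 2, was a ratio of folds of 1.48 with an interval from 0.949 to 2.33. Of the coverage above noise in no light, 12.5% was left at brk, 14.2% at pnr, 22.1% at tld, 24.1% at dpp peak 1 and 28.7% at dpp peak 2, against a median of 22.1% over all peaks. The comparisons at 1, 5 and 30 min share the no light matrix, which was also the one set against wild type.

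Between 5 and 30 min tld lost least of the 5 peaks. This comparison shares the 5 min matrix with that of 5 min against no light, where the matrix is the numerator. A low 5 min value at tld therefore lowers the one ratio and raises the other. The 30 min matrix is shared with the comparison of 30 min against no light. Coverage was lower after 30 min at 4 of 5 peaks, where 50.5% of all peaks were lower, and tld was the peak not called. It was 2.00-fold lower at pnr (1.38 to 2.87), 1.78-fold at brk (1.20 to 2.67), 1.61-fold at dpp peak 1 (1.29 to 2.02) and 1.42-fold at dpp peak 2 (1.03 to 1.97), against 1.18-fold at tld (0.886 to 1.56). The calls at pnr and dpp peak 2 were lost with the highest point in place of the mean (ratios 0.611, 0.268 to 1.35, and 0.731, 0.375 to 1.41), and that at dpp peak 2 also with 100 bp on each side (0.652, 0.411 to 1.02), with read equivalents of the extension length in place of the tag length (0.706, 0.447 to 1.13) and with a fold of at least 1.5 asked for. Only the pair of tld and pnr differed beyond counting error, by 1.68 times (1.05 to 2.70), and with 100 bp on each side 0 pairs did. On the z-score scale 91.9% of the 30 min fall at tld had been reached at 5 min, 75.1% at dpp peak 1, 72.4% at dpp peak 2, 72.1% at brk and 64.9% at pnr. The median of all peaks was 78.6%.

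**Figure D3:**
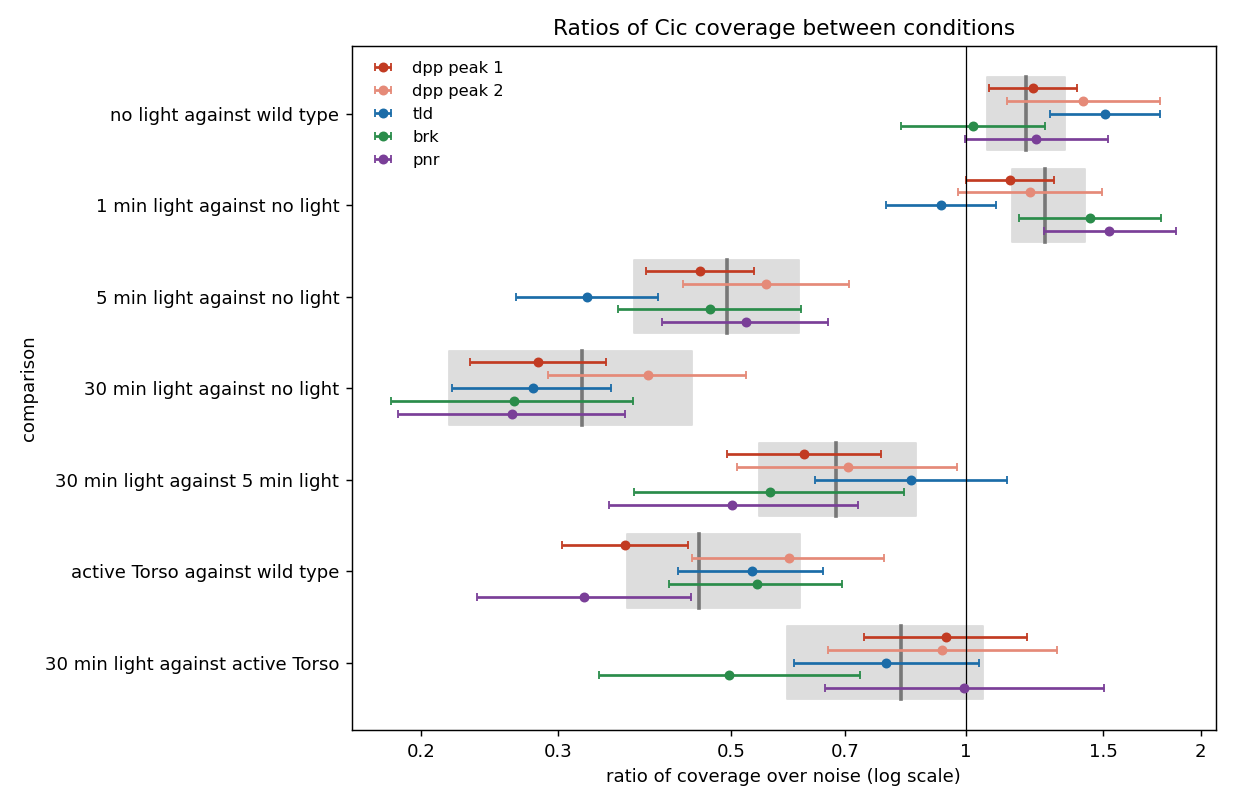
Ratio of coverage over noise (horizontal axis, log scale) for the 5 peaks in 7 comparisons (vertical axis), with 95% counting intervals. Grey bands run between the quartiles of all 103 peaks, with their median as a line. At 5 min tld is the lowest of the 5 at 0.327, at 30 min the intervals of all 5 overlap, and with active Torso pnr and dpp peak 1 are the lowest, at 0.323 and 0.365.

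Embryos with constitutively active Torso were compared with wild type as the case of lasting ERK activity. All 5 peaks were lower, where 87.4% of all peaks were lower and 2.91% higher. The response gene pnr and dpp peak 1 were lowest relative to wild type. Coverage at pnr went from 5.82 to 1.88, 3.09-fold lower (2.25 to 4.24), and at dpp peak 1 from 14.9 to 5.45, 2.74-fold lower (2.27 to 3.30). The others were 1.88-fold lower at tld (1.53 to 2.34), 1.85-fold at brk (1.44 to 2.41) and 1.69-fold at dpp peak 2 (1.28 to 2.25), where the median of all peaks was 2.20-fold. Of the 10 pairs 6 differed beyond counting error, and each sets pnr or dpp peak 1 against tld, brk or dpp peak 2. The fold at pnr was 1.82 times that at dpp peak 2 (1.18 to 2.80) and 1.65 times that at brk (1.10 to 2.50). The sites within dpp differed as well, by 1.62 times (1.15 to 2.27). After 30 min the corresponding value was 1.38 (0.966 to 1.97), in the same direction, and whether the Torso and light values differ was not tested. With 100 bp on each side of the centre 4 of the 10 Torso pairs differed. These folds also include the noise level, and dpp peak 1 started furthest above it. Of the coverage above noise in wild type, 18.3% was left at pnr, 31.9% at dpp peak 1, 45.1% at brk, 47.2% at tld and 48.7% at dpp peak 2. Whether these shares differ was not tested.

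Set beside 30 min of light, active Torso left more Cic at brk. Coverage at brk was 1.66 after 30 min and 3.35 with active Torso, 2.01-fold lower under light (1.37 to 2.96). The other 4 peaks were not called, with ratios of 30 min to Torso of 0.994 (0.658 to 1.503) at pnr, 0.944 (0.739 to 1.20) at dpp peak 1, 0.931 (0.665 to 1.31) at dpp peak 2 and 0.790 (0.601 to 1.04) at tld. Hence 1 of 5 was lower, where 36.9% of all peaks were lower and 7.77% higher. The ratio at brk was 0.504 times that at pnr (0.284 to 0.892). Taken each against its own control, the ratio after 30 min was 0.487 times the Torso ratio at brk (0.320 to 0.743), 0.524 times at tld (0.385 to 0.713) and 0.660 times at dpp peak 2 (0.446 to 0.976). The same quotient was 0.775 at dpp peak 1 (0.593 to 1.01) and 0.809 at pnr (0.519 to 1.26). So, relative to their own controls, 3 of 5 had lost more under 30 min of light than with active Torso. Of all peaks 49.5% had lost more and 4.85% less, and the median quotient over all peaks was 0.675. The quotient also holds the ratio of no light to wild type. That ratio was 1.51 at tld, 1.41 at dpp peak 2, 1.23 at pnr, 1.22 at dpp peak 1 and 1.02 at brk. Its part in the quotients was not tested. The groups differ in genotype as well as in the source and length of ERK activity, and these cannot be told apart.

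The shapes of the peaks differed. The width of the brk peak at 50% of its highest point was 170 bp in wild type, 160 bp in no light, 170 bp after 1 min, 230 bp after 5 min, 420 bp after 30 min and 150 bp with active Torso, and the mean coverage of the outermost 500 bp on each side was 0.833 times noise in wild type. After 30 min its highest point reached only 2.54 times noise, against 17.2 in no light. At tld the width was 250 bp in both wild type and no light, and 260 bp after 1 min. It was 240 bp after 5 min, 440 bp after 30 min and 350 bp with active Torso. At pnr the width was 250 bp in wild type and 400 bp in no light, where the profile has a shoulder on its left. After 30 min the pnr width was 330 bp. From no light to 30 min the width went from 300 to 350 bp at dpp peak 1, with 450 bp after 5 min. At dpp peak 2 it went from 240 to 230 bp. The authors centred each window on the highest point of that condition. Matched by shape to wild type, the windows of the 5 peaks were displaced by 0 to 100 bp. The ratios of the peaks in matched windows used 150 bp on each side in place of 250 bp. Placement and width thus changed together, and no call changed. The match was weakest at brk after 30 min (profile correlation 0.594), where little signal was left to match.

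**Figure D4:**
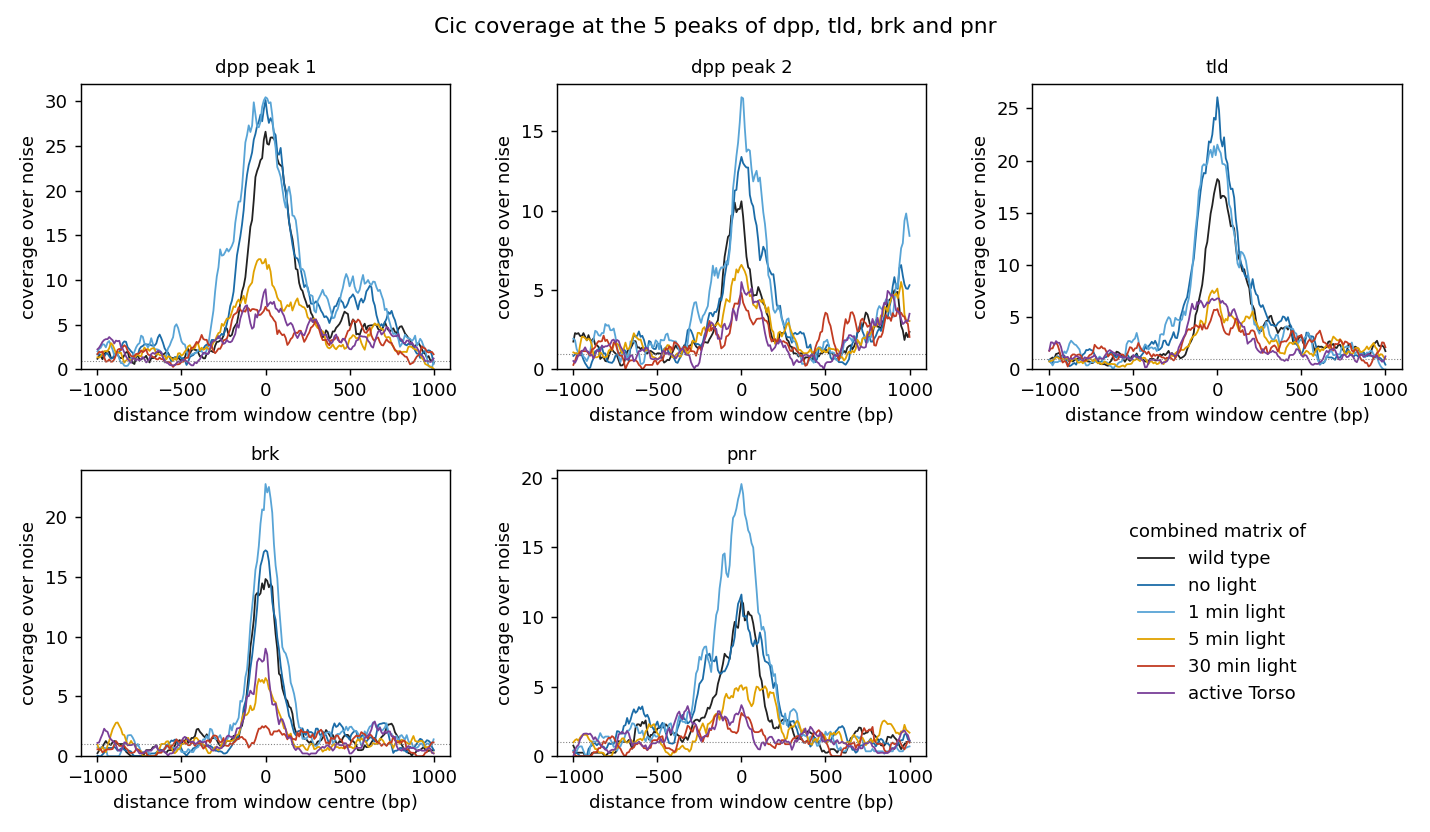
Coverage over noise (vertical axis) by distance from the window centre in bp (horizontal axis) at the 5 peaks, 1 line per condition, with the dotted line at the noise level of 1. Wild type, no light and 1 min profiles stand well above the others. To the right of dpp peak 1 a second, lower rise lies between 400 and 900 bp, with a mean of 6.04 in no light and 3.18 after 30 min, and the right end of dpp peak 2 rises towards a call at the dpp start.

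Beside its main summit, dpp peak 1 had a second stretch of signal at 400 to 900 bp to the right, which was singled out after the profiles were seen. Coverage there was 4.57 times noise in wild type, 6.04 in no light, 7.01 after 1 min, 3.09 after 5 min, 3.18 after 30 min and 3.36 with active Torso. The same stretch to the left had 1.51 in wild type and 2.08 in no light. From no light to 5 min the side fell with the centre, by 1.95-fold (1.497 to 2.56) against 2.19-fold. From 5 to 30 min the side did not fall further (ratio 1.03, 0.745 to 1.42), whereas the centre did. The ratio of 30 min to no light was 1.86 times as high at the side as at the centre (1.32 to 2.63), and that of active Torso to wild type 2.01 times as high (1.44 to 2.80). With windows placed by shape these values were 2.18 (1.55 to 3.05) and 2.05 (1.47 to 2.87). These ratios include the noise level, and the side started nearer to it, at 6.04 in no light against 18.2 at the centre. An equal relative loss of coverage above noise would therefore already give a higher ratio at the side. How much of the difference comes from this was not tested. The untagged level at this peak, 1.59 times the lowest, was the highest of the 5, and its part in the signal left at the side was not tested.

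**Figure D5:**
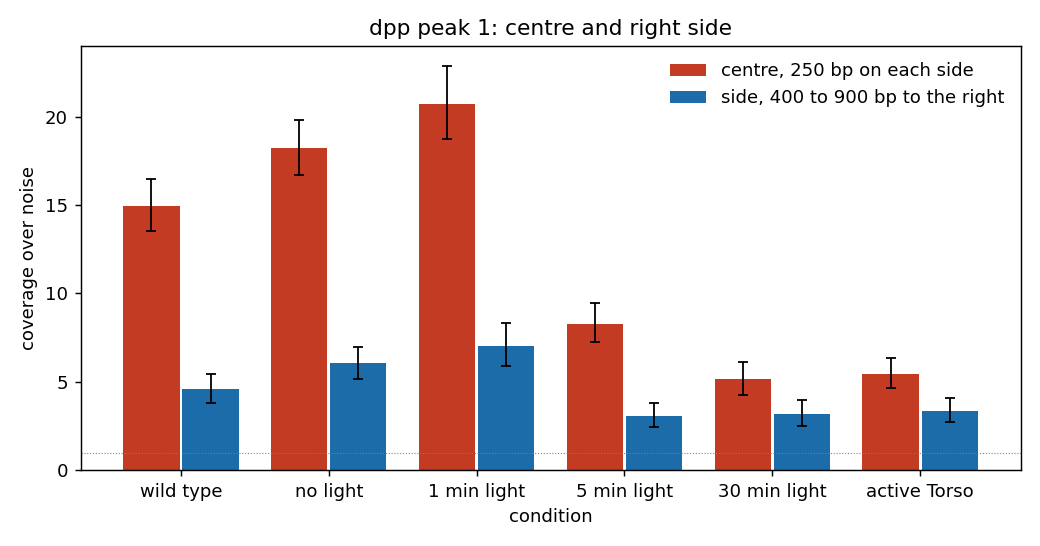
Coverage over noise (vertical axis, starting at 0) at dpp peak 1 in the 6 conditions, for the central 250 bp on each side (red) and for the stretch 400 to 900 bp to the right (blue), with 95% counting intervals. The centre goes from 18.2 in no light to 5.14 after 30 min, the side from 6.04 to 3.18.

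The peaks most alike in their course were found by the distance between log2 profiles over the 6 conditions, each centred on its own mean. Nearest to dpp peak 1 were the peaks of cno (0.274), Lrt (0.295) and eIF4A (0.299), where the median distance to all peaks was 0.791. Nearest to tld were Nf1 (0.330), Tom (0.389) and RpS30 (0.423), and nearest to dpp peak 2 were apt (0.286), milt (0.291) and abd-A (0.350). The course of brk was closest to hkb peak 2 (0.342), pnt peak 3 (0.352) and wntD (0.406). The peak of pnr was nearest to upd1 (0.450), dpp peak 1 (0.500) and cno (0.526). No other member had a member among its nearest 3. Distances among the 5 ran from 0.500 between dpp peak 1 and pnr to 1.00 between tld and pnr.

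Besides the 4 genes, which were chosen for having a final peak, 25 genes of a BMP pathway list were looked up, and 5 of them were annotated to one. These were shn, which encodes a zinc-finger cofactor of the Smad proteins, and the response genes zen, zen2, Doc2 and Doc3. None of the 4 receptor genes tkv, sax, put and wit and neither of the other ligand genes scw and gbb had one. Of all 13951 protein-coding genes 0.616% were annotated to a final peak. The list was chosen with earlier results of these data known, so the shares here and below do not test the pathway. Some of the peaks also lie close together. Those of zen2 and zen start at 3R 6744624 and 6755319, and those of Doc3 and Doc2 at 3L 9002571 and 9028911. The gene body of 9 of the 25 lay within 10000 bp of a MACS2 call. For tok this was the tld peak, and for Doc2 it was the Doc3 peak. The peak annotated to Doc2 itself was distal intergenic, at -9665 bp from the start. Among the 9 were also tkv, with a highest fold enrichment of 3.21, and ush with 4.65. Of all protein-coding genes 7.46% had a call that near. At the 5 other peaks of the list Cic was lower at all 5 after 5 min (median 1.65-fold) and after 30 min (median 3.06-fold). The range at 30 min was wider than among the members, from 2.00-fold at shn (1.66 to 2.42) to 6.53-fold at zen2 (4.83 to 8.96). With active Torso 4 of these 5 were lower, and Doc3 was higher, with a ratio of 1.47 (1.18 to 1.82).

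The gene of the inhibitor that Tolloid cleaves, sog, has a final peak within its RefSeq span (X, 15608091 to 15608559), although the authors' symbol for that peak is CG9220. Its fold enrichment was 9.82. Coverage over noise was 9.11 in wild type, 9.33 in no light, 13.4 after 1 min, 3.31 after 5 min, 2.25 after 30 min and 1.34 with active Torso. It was 2.82-fold lower after 5 min (2.21 to 3.61) and 4.14-fold lower after 30 min (3.07 to 5.62). With active Torso it was 6.78-fold lower than in wild type (4.83 to 9.70), the largest loss of all 103 peaks in that comparison, where tld was 1.88-fold lower.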

How the data were processed

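The 40 libraries were 20 ChIP and 20 input (1%). Embryos were collected for 3 to 4 h in the dark and, after the light pulse, fixed for 15 min. The submitters' processing notes name dm6, ChIPseeker, MACS2, SAMtools, Trim Galore and BWA 0.7.17-r1188. MACS 2.1.2 compared 6994179 pooled wild type with 5712080 pooled untagged tags of 74 bp, per the file headers. Fold enrichment (a ratio), the pileup signal, -log10 q values and a score were deposited by the authors for each peak. The sources used here do not give the filter that took 468 calls to 103 peaks. The deposited matrices hold z-scores of depth-scaled reads in 201 windows of 10 bp, normalised on noise peaks per the contents sheet; how replicates were combined is not stated.

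Within a matrix the z-scores fell on equally spaced steps, which were taken as read bases per window, with the lowest value as 0 and z = 0 as the noise level. Columns were taken in peak list order: the highest wild type coverage of the 5 peaks, 104 to 41.6 reads, ranked as the MACS2 pileups did, 162 to 62.9, and all 5 pairs of peaks within 1500 bp matched exactly where windows overlap. Read bases were divided by 74 bp to give read equivalents, and 95% intervals on these are exact and conditional on the sum (for the quotient of 30 min and Torso ratios, normal on the log scale). They hold counting error alone, and a peak is called when its interval leaves out 1. The untagged level was recovered from pileup and fold enrichment. Python 3.11.15, numpy 2.4.6 and scipy 1.17.1 were used, and the scripts were tested on simulated data. RefSeq gene spans are those of Release 6, the dm6 assembly. Members, gene lists and rules for named genes were chosen with earlier results of these data known. The rule named the 5 peaks, the 3 peaks nearest to each in course, and listed genes with a final peak; sog, tkv and ush were named after their positions were seen. Input libraries and motif searches were not used here.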

Additional observations from a re-analysis of the deposited data

Results flagged for a closer look

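Near the members 3 further MACS2 calls, which are above the untagged level but not in the final list and in no comparison, stood out. One lies at the dpp start (2L, 2454659 to 2454914), with its summit 27 bp inside the annotated transcript, and had a fold enrichment of 3.68 with a -log10 q of 8.40. The right end of the dpp peak 2 windows, 800 to 1000 bp from the centre, reaches towards it. Coverage there was 4.36 times noise in no light and 2.93 after 30 min (ratio 0.671, 0.412 to 1.07), and 3.38 in wild type and 3.66 with active Torso (ratio 1.08, 0.686 to 1.71).

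Another lies at the brk start (X, 7307851 to 7308043), with its summit 9 bp upstream, and had a fold enrichment of 2.46 with a -log10 q of 3.14 at an untagged level 2.03 times the lowest. The third lies inside pnr (3R, 16028719 to 16028985), 5643 bp from the summit of the promoter peak, with a fold enrichment of 3.15 and a -log10 q of 5.90.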

How the results depend on the processing

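No paired analysis was possible because the deposited matrices combine the replicates; for the same reason no replicate could be left out. Motif searches were not run. No call of a member changed direction under any alternative. Higher calls in no light against wild type went from 3 to 1 with 100 bp on each side of the centre, with the maximum of the window, and when a fold of at least 1.5 was also asked for. Higher calls at 1 min went from 2 to 1 with the maximum and with that fold. Lower calls from 5 to 30 min went from 4 to 2 with the maximum and to 3 with 100 bp, with read equivalents of the extension length or with that fold. With 100 bp, pairs of members that differed went from 4 to 2 at 5 min, from 0 to 1 at 30 min, from 1 to 0 between 5 and 30 min and from 6 to 4 with active Torso. The median Torso ratio moved from 0.531 to 0.374 with the maximum. The settings with 100 bp and with the maximum use fewer reads. The causes of these changes were not tested. All members stayed lower at 5 min, at 30 min and with active Torso in every setting. Scaling on the outer 500 bp shifted all log2 ratios by 0.14 at 5 min, 0.15 at 30 min and 0.10 with active Torso and changed no member call. With a -log10 q of at least 20 all 5 peaks stayed in the list.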
